A study of Mus musculus with 2 samples.

Results

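The mouse Hox genes, the clustered homeobox genes that lay down position along the body axis, were examined in the colon after a short period on a fibre diet. Members were all probe sets naming exactly 1 gene whose symbol is Hox followed by a, b, c or d and a number. This gave 37 of 41345 probe sets on the array and 36 of 22180 genes named by a probe set of their own. Hoxa11 and Hoxd4 were read only by probe sets shared with another gene and are described apart.

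The study compared colons of 7-week-old male mice of the outbred ICR stock. The psyllium group ate food containing 10% psyllium, a gel-forming plant fibre, over 5 days, and the control group ate food without it. Total RNA labelled with biotin was hybridised to whole-transcript arrays, with 1 array per diet. The labels give neither the number of mice behind each array nor the part of the colon sampled. No difference below therefore has a replicate check, and none carries a standard error or p-value. Differences are log2 intensity on the psyllium array minus log2 intensity on the control array.

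Hox proteins are transcription factors that bind DNA through a homeodomain, mostly together with the cofactors of the Pbx and Meis families. Their genes sit in 4 clusters, Hoxa to Hoxd, and within each cluster the gene order matches the order of expression from head to tail. In the gut tube they are expressed in the mesenchyme, and some also in the epithelium, and the highest paralogue numbers mark the hindgut. Paralogues 1 to 3 are called anterior here, 4 to 8 central and 9 to 13 posterior.

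Tissue and cell type markers were read first. All 13 colon epithelium markers exceeded an intensity of 70 on at least 1 array, where 49.8% of all genes did. So did 12 of 12 smooth muscle and 12 of 12 fibroblast and matrix markers, while none of 8 stomach markers did. Of 9 small intestine markers 7 exceeded it, among them Fabp6, an ileal bile acid binding protein, at 184 on the psyllium array and 259 on the control array. Lct (34.1 on the psyllium array and 44.2 on the control array) and Fabp1 (37.5 on the psyllium array and 59.0 on the control array) did not. These counts therefore do not tell colon from small intestine. The 2 arrays differed in wall and epithelial genes. Smooth muscle markers summed to 30299 on the psyllium array and 12807 on the control array. Their median difference was 1.26, and 12 of 12 were positive. Fibroblast and matrix markers summed to 11244 on the psyllium array and 4875 on the control array, and 9 of the 12 were past 1.5-fold, all of these higher. Colon epithelium markers summed to 39608 on the psyllium array and 42608 on the control array. Their median difference was -0.27, and 12 of 13 were negative. Small intestine markers summed to 3629 on the psyllium array and 6458 on the control array, and all 9 differences were negative (median -0.69). Medians of the other marker lists were -0.06 for enteric neuron and glia, -0.01 for endothelium, -0.28 for immune cells, 0.18 for adipocytes and 0.08 for stomach. In whole tissue, fewer cells of a type and less RNA per cell cannot be told apart.

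Sequences are printed for microRNAs inside the clusters and for promoters of members chosen by their differences. A link between these sequences and the differences was not tested. The clusters carry the microRNA families miR-10 and miR-196. Mir10a lies beside Hoxb4, Mir10b beside Hoxd4, Mir196a-1 beside Hoxb9, Mir196a-2 between Hoxc10 and Hoxc9, and Mir196b between Hoxa9 and Hoxa10 in the RefSeq table. In the mouse, Hoxb8 messenger RNA is a known target of miR-196. RefSeq mature sequences of build GRCm38.p6 follow, with the seed, bases 2 to 8, in capitals, since the seed is shared within each family and differs between them.
mmu-miR-196a-5p: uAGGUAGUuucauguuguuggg
mmu-miR-196b-5p: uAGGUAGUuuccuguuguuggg
mmu-miR-10a-5p: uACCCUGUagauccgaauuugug
mmu-miR-10b-5p: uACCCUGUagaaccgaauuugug

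Promoter windows of Hoxd10, Hoxd11 and Hoxb8 are printed because these 3 had the largest differences among members over an intensity of 70 on both arrays. Each is the 250 bases before a RefSeq transcript start of build GRCm38.p6, 5′ to 3′ on the plus strand. Hoxd10 lies at chr2:74691641-74691890, the 2 windows of Hoxd11 at chr2:74679308-74679557 and chr2:74682073-74682322, and Hoxb8 at chr11:96281655-96281904. Capitals mark matches on either strand to TTTATG, the core bound by Cdx factors, or to TGATNNAT, a form bound by Hox and Pbx proteins together. No match of 1 motif overlapped a match of the other in these windows.
Hoxd10: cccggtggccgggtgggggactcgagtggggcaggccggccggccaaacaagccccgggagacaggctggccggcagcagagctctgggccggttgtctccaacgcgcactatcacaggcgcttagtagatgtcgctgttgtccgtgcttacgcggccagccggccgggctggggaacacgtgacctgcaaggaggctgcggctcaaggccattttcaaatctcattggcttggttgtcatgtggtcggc
Hoxd11, window 1: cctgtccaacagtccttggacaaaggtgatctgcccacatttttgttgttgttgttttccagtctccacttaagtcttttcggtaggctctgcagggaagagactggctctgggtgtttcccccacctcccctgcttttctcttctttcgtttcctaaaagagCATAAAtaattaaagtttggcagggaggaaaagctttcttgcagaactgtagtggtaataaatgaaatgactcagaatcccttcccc
Hoxd11, window 2: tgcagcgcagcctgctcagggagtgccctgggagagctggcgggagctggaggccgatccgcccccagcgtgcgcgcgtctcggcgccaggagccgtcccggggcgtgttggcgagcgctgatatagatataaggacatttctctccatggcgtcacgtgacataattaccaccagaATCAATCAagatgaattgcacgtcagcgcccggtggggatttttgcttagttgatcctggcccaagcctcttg
Hoxb8: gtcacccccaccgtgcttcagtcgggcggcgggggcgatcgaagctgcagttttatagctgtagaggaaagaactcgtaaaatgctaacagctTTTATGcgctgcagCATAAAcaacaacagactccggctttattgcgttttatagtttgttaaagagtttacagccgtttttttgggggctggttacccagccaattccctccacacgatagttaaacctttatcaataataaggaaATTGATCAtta
The Hoxb8 window held 2 TTTATG matches and 1 TGATNNAT match, and the Hoxd10 window held neither. Window 1 of Hoxd11 held 1 TTTATG match and window 2 held 1 TGATNNAT match. Over all 32851 promoter windows of this length, 10.8% held TTTATG and 7.68% held TGATNNAT. The promoter table matched 20 of the 36 Hox genes, so no share over the family is given. A match describes letters and is not a binding site.

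Across the family the 2 arrays were about as close as over all genes. The median absolute difference was 0.16 for the Hox genes and 0.17 for all genes. None of the 36 Hox genes was 1.5-fold higher or lower on the psyllium array, where 3.42% of all genes were higher by that much and 2.8% lower. The differences ran from -0.45 for Hoxc9 to 0.55 for Hoxd10, with a median of 0.03, against a median of -0.0025 over all genes. By sign, 20 were positive, 14 negative and 2 were 0, where 47.2% of all genes were positive and 2.52% had identical values. An intensity of 70 was exceeded on at least 1 array by 15 Hox genes and on both by 13. The limit lies close to the median over genes of the brighter array's value, 69.5, and is not a detection limit. Probe sets differ in brightness for reasons of their own, so an intensity does not rank one Hox gene against another.

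**Figure D1:**
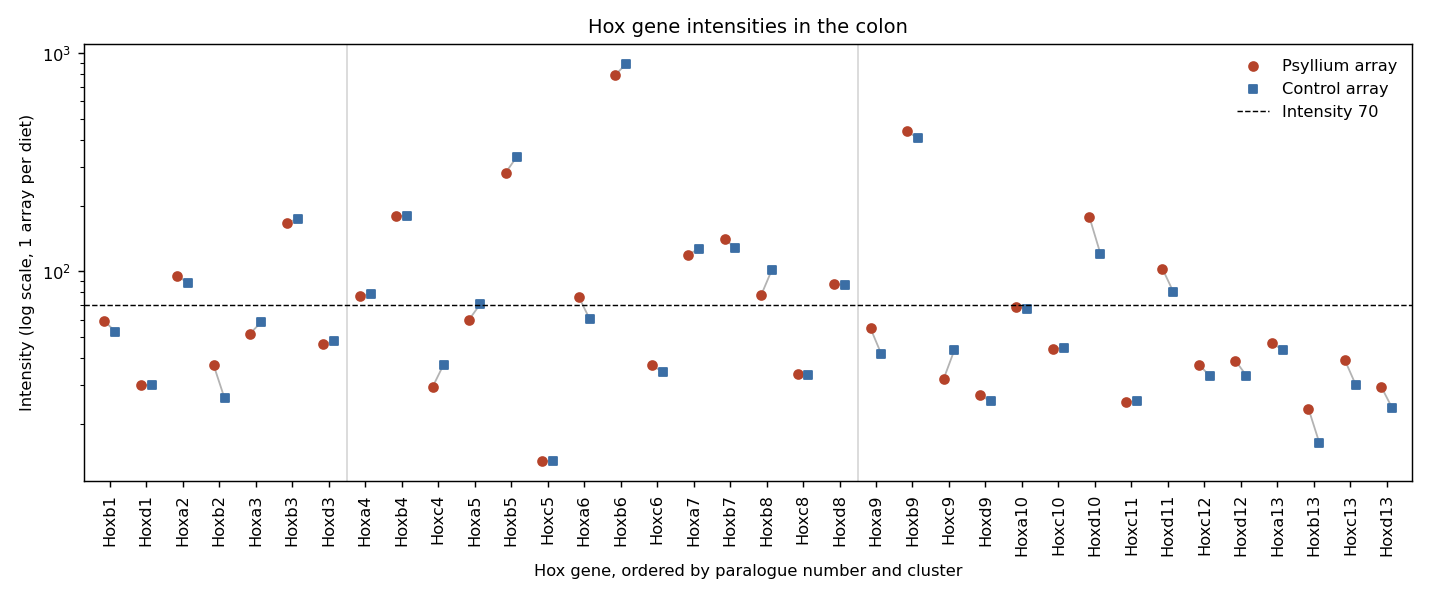
Intensity of each of the 36 Hox genes on a log axis, ordered by paralogue number and cluster, with the psyllium array as circles, the control array as squares and the dashed line at 70. Grey lines set off anterior, central and posterior genes. The 2 marks of most genes lie close together, and none is 1.5-fold apart.

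The 15 brighter genes were mainly central members of Hoxa and Hoxb. Over all genes 49.8% exceeded 70 on at least 1 array. The 15 comprised 2 of 7 anterior, 10 of 14 central and 3 of 15 posterior genes. Because probe sets differ in brightness, these counts do not order the groups or clusters by expression. By cluster they were 7 of 10 Hoxb, 5 of 9 Hoxa, 3 of 8 Hoxd and 0 of 9 Hoxc genes. The values nearest the limit were those of Hoxa5, over it on the control array alone, Hoxa6, over it on the psyllium array alone, and Hoxa10, just under it on both at 68.8 on the psyllium array and 67.2 on the control array.

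Among anterior genes the bright members hardly differed. Hoxa2, which patterns the second branchial arch, had 95.4 on the psyllium array and 88.2 on the control array, a difference of 0.11. Hoxb3 had 167 on the psyllium array and 173 on the control array, a difference of -0.06. Hoxb2, a hindbrain gene, was the outlying anterior member, at 37.1 on the psyllium array and 26.1 on the control array. Its difference of 0.51 (1.42-fold) rests on values under 70. Hoxa3, needed for the thymus and parathyroid, had 51.7 on the psyllium array and 58.4 on the control array (-0.17). Hoxb1, also a hindbrain gene, had 59.3 on the psyllium array and 52.9 on the control array (0.17). Hoxd3 differed by -0.05, and Hoxd1 had the same value on both arrays, 30.1. The median of the 7 anterior genes was 0, with 3 positive and 3 negative.

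Central genes carried the highest share of bright probe sets, and their median lay just below 0. Their median difference was -0.02 over 14 genes and -0.07 over the 10 that exceeded 70, of which 7 were negative. Over all 11048 genes past 70 on at least 1 array the median was -0.04 and 42.6% were positive, and the bright central genes' median became -0.13 when the limit was 100.

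Hoxb6 had 791 on the psyllium array and 892 on the control array, a difference of -0.17. Hoxb5, a regulator of enteric neural crest cells, was read by 2 probe sets of its own. The brighter gave 283 on the psyllium array and 333 on the control array (-0.24), and the other gave 120 on the psyllium array and 138 on the control array (-0.21). The 2 probe sets differed by little. Which strand each of them reads was not checked. Both were hybridised with the same RNA, so their closeness says nothing of other animals. Hoxb8, also known for its role in blood progenitors and microglia, had 77.4 on the psyllium array and 102 on the control array. Its difference of -0.39 (1.31-fold lower) was the most negative among bright members, and 15.1% of all genes past 70 lay as far from 0 in either direction.

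The remaining bright central genes lay on both sides of 0. Hoxb4, which expands blood stem cells when overexpressed, had 179 on the psyllium array and 180 on the control array. Hoxb7, the neighbour of Hoxb8, went the other way, at 141 on the psyllium array and 127 on the control array (0.15). Hoxa6 had 76.5 on the psyllium array and 60.5 on the control array, a difference of 0.34. Its neighbour Hoxa5, which patterns the lung and stomach mesenchyme, had 60.0 on the psyllium array and 70.4 on the control array, a difference of -0.23. Both pairs of neighbours had differences of opposite sign. Hoxa4 (-0.04), Hoxa7 (-0.09) and Hoxd8 (0.01) differed by less than 0.1. The dim central Hoxc genes ranged from -0.34 for Hoxc4, at 29.5 on the psyllium array and 37.2 on the control array, to 0.10 for Hoxc6. Hoxc8 differed by 0.02, and Hoxc5 had the same value on both arrays, 13.4. Identical values occurred for 2.52% of all genes.

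Posterior genes leaned higher on the psyllium array. Their median difference was 0.18 over 15 genes, with 12 positive, where 47.2% of all genes were positive. All 3 bright members were positive, where 42.6% of genes past 70 were, and 9 of the 12 dim members were positive, where 51.9% of genes at or under 70 on both arrays were. Hoxd10, which patterns the hindlimb and its motor neurons, had 177 on the psyllium array and 120 on the control array. This was the highest difference of the family, 0.55 or 1.47-fold, and 7.34% of all genes past 70 lay as far from 0. Hoxd11, its neighbour and a limb and kidney patterning gene, had 103 on the psyllium array and 80.2 on the control array, a difference of 0.36 or 1.28-fold. Hoxb9, which acts in rib patterning, had 437 on the psyllium array and 407 on the control array, a difference of 0.10. Beside these values, smooth muscle markers had a median of 1.26 and colon epithelium markers one of -0.27. Their part in the Hox differences was not tested.

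Posterior Hoxd genes all had the same sign. All 5 were positive, from 0.09 for Hoxd9 to 0.55 for Hoxd10, with a median of 0.32, where 47.2% of all genes were positive. Hoxd12 differed by 0.23. Of the 5, Hoxd9, Hoxd12 and Hoxd13 lay under 70 on both arrays. The 3 posterior Hoxa genes were positive too, namely Hoxa9 (0.40, at 54.7 on the psyllium array and 41.5 on the control array), Hoxa10 (0.03) and Hoxa13 (0.10). These 3 also lay under 70 on both arrays, where 51.9% of all such genes were positive. The 5 posterior Hoxc genes were mixed, with a median of -0.02. Hoxc9, which specifies thoracic motor neurons, had 31.9 on the psyllium array and 43.6 on the control array, the most negative difference of the family at -0.45. Hoxc10 and Hoxc11 differed by -0.02 each and Hoxc12 by 0.18.

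The 4 paralogues numbered 13, of which Hoxa13 and Hoxd13 act in hindgut and limb development, were all positive and all dim. Among all genes at or under 70 on both arrays, 51.9% were positive. Hoxa13 had 46.8 on the psyllium array and 43.5 on the control array. Hoxb13, known from the distal colon and prostate, had 23.4 on the psyllium array and 16.3 on the control array, a difference of 0.52. Hoxc13, a regulator of hair keratins, had 39.0 on the psyllium array and 30.0 on the control array (0.38). Hoxd13 had 29.4 on the psyllium array and 23.5 on the control array (0.32). None of the 8 values exceeded 70, so the folds rest on weak signal. Of all genes at or under 70 on both arrays, 8.26% lay as far from 0 as Hoxb13 and 25.0% as far as Hoxd13.

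**Figure D2:**
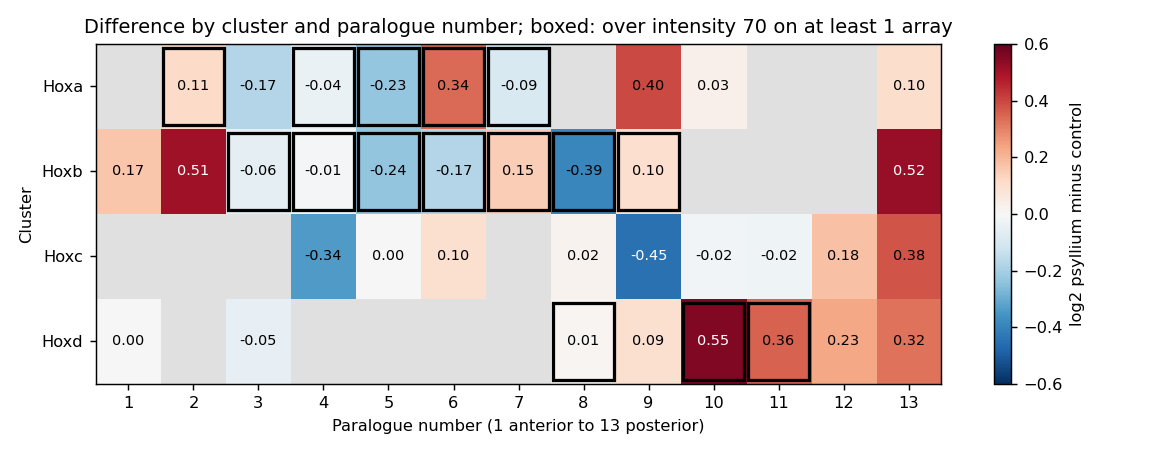
Difference on the log2 scale, psyllium minus control, of each measured Hox gene by cluster (rows) and paralogue number (columns). Boxes mark genes over an intensity of 70 on at least 1 array, and grey squares hold no value here. The right side holds most of the positive values, from 0.09 to 0.55 in Hoxd, while the boxed central genes lie between -0.39 and 0.34.

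As a description of these 2 arrays, the difference and the paralogue number had a Pearson correlation of 0.35 and a Spearman correlation of 0.40 across the 36 genes. All points share the same 2 arrays, and genes are not independent replicates. By cluster the Pearson correlation was 0.71 over 8 Hoxd genes, 0.52 over 9 Hoxc, 0.34 over 9 Hoxa and 0.10 over 10 Hoxb genes, where the Spearman correlation was -0.07. Over the 15 bright genes the Pearson correlation was 0.41 and the Spearman correlation 0.35.

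A smaller size rule of 1.2-fold, chosen after the values were seen, was passed upward by 8 of 36 Hox genes and downward by 3. Over all genes 16% passed it upward and 15.5% downward. Of the 8 higher genes 6 were posterior. Only 3 of the 8, Hoxd10, Hoxd11 and Hoxa6, and 1 of the 3 lower genes, Hoxb8, exceeded 70. Among all genes past 70, 13.6% were higher and 15.5% lower by this rule, and of the 15 bright Hox genes 3 were higher and 1 lower. The dim genes gave 5 higher and 2 lower of 21, where 18.4% of dim genes were higher and 15.4% lower.

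**Figure D3:**
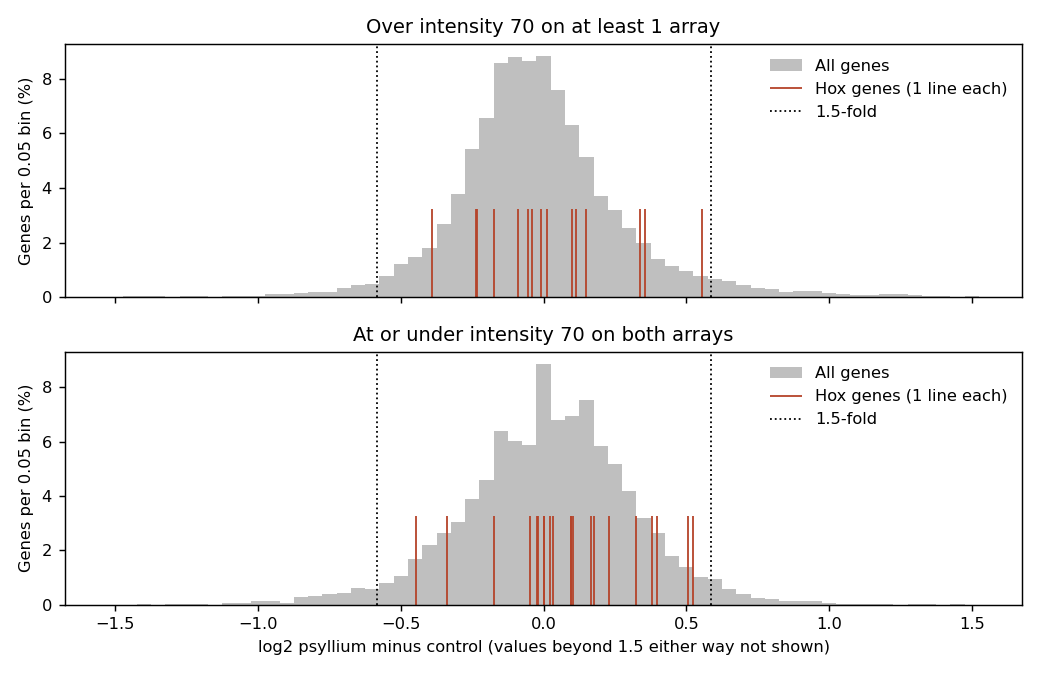
Share of all genes, in percent per bin of 0.05, by log2 difference, psyllium minus control, for genes over 70 on at least 1 array (top) and at or under 70 on both (bottom). Red lines stand for the Hox genes, 15 above and 21 below, and dotted lines for 1.5-fold. All red lines lie between the dotted lines, inside the bulk of the grey distribution.

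Probe sets shared between a Hox gene and another transcript numbered 7, of which 5 were higher and 2 lower on the psyllium array. Of all genes with a probe set of their own, 47.2% were positive, and the share over all shared probe sets was not computed. Of the 7, 2 exceeded 70 on at least 1 array, and 2 name the same transcripts, Hoxa11 and Hoxa11os. The shared probe sets read both transcripts, and the strand was not assigned where the partner is antisense. The probe set of Hoxd4 and Hoxd3 had 178 on the psyllium array and 171 on the control array (0.06). Of the 2 for Hoxa11 and its antisense transcript Hoxa11os, the brighter had 68.1 on the psyllium array and 45.4 on the control array (0.58) and the other 42.4 on the psyllium array and 38.5 on the control array (0.14). The probe set of Hoxa7 and the non-coding transcript Mira had 71.7 on the psyllium array and 92.1 on the control array (-0.36), against -0.09 for that of Hoxa7 alone. The probe set of Mir10a and Hoxb4 had 28.1 on the psyllium array and 36.1 on the control array (-0.36, both under 70), against -0.01 for that of Hoxb4 alone.

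Of 27 neighbours and non-coding members of the clusters, 18 had a probe set of their own, and their median difference was 0.02. None was 1.5-fold apart. The 3 largest differences past 70 were those of the flanking adaptor genes Skap1 (63.5 on the psyllium array and 79.1 on the control array, -0.32) and Skap2 (-0.31), and of the non-coding Hoxaas3 (161 on the psyllium array and 131 on the control array, 0.29). Evx2, the homeobox gene beside Hoxd13, differed by 0.36 at 45.2 on the psyllium array and 35.3 on the control array, both under 70. The probe set of Mir196a-1 had 379 on the psyllium array and 430 on the control array (-0.18), and that of Mir10b had the same value, 7.35, on both. Evx2 and the microRNAs were singled out after their values were seen. A whole-transcript array reads precursor or host transcripts here, so these are not levels of the mature sequences printed above.

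Of 9 Hox cofactors 8 were measured, and 7 of these were positive, where 47.2% of all genes were. Their median was 0.16. Meis1, which binds DNA together with Hox proteins, had 213 on the psyllium array and 141 on the control array. Its difference of 0.59 made it the 1 member past 1.5-fold, where 3.42% of all genes were that much higher. Pbx3 had 162 on the psyllium array and 126 on the control array (0.36), and Meis2 had 214 on the psyllium array and 193 on the control array (0.15). On the same arrays 12 of 12 smooth muscle markers were positive, with a median of 1.26, and 9 of 12 fibroblast and matrix markers were past 1.5-fold higher. Their part in the cofactor values was not tested.

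Of 18 measured mesenchyme patterning genes of the gut tube 13 were positive, where 47.2% of all genes were. None was past 1.5-fold, and the median was 0.16. Hhip, a Hedgehog antagonist, had 201 on the psyllium array and 134 on the control array (0.58), and the signalling ligand Bmp4 had 401 on the psyllium array and 281 on the control array (0.51). Hand1, a transcription factor, had 84.4 on the psyllium array and 61.0 on the control array (0.47). Of 15 regional epithelial genes 9 were negative, 5 positive and 1 was 0, with a median of -0.08, where 47.2% of all genes were positive. The 5 past 70 were all negative, with a median of -0.29, where 42.6% of all genes past 70 were positive. All of the positive ones lay under 70 on both arrays. Cdx2, the intestinal homeobox factor that acts upstream of posterior Hox genes, had 665 on the psyllium array and 933 on the control array (-0.49). Cdx1 had 333 on the psyllium array and 406 on the control array (-0.29), and Fabp6 differed by -0.49. On the same arrays smooth muscle markers were higher by a median of 1.26, and colon epithelium markers differed by a median of -0.27. Cdx2 is itself among the colon epithelium markers, and Fabp6 is among the small intestine markers. The part of the marker lists in these values was not tested.

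Genes that set Hox transcription in development were read as 3 lists. Polycomb repressors, which keep silent Hox genes closed, had a median of -0.06 over 27 genes, with none past 1.5-fold. The lowest were Pcgf3 (-0.26), Phc1 (-0.25) and Cbx7 (-0.24). Trithorax activators, which keep active Hox genes open, had a median of -0.09 over 10 genes. Among them Psip1 differed by 0.27, and Dpy30 and Kdm6a by -0.18 each. Retinoic acid genes, whose product induces anterior Hox genes, had a median of -0.09 over 17 genes with 8 positive and 9 negative. Over the 7 past 70 the median was -0.18, and 6 of them were negative. Over all genes past 70 the median was -0.04, and 42.6% were positive. By the 1.2-fold rule 3 of the 17 were lower and 2 higher, where 15.5% of all genes were lower and 16% higher. The retinal dehydrogenase Aldh1a1 had 1665 on the psyllium array and 2474 on the control array (-0.57), the receptor Rxra 314 on the psyllium array and 394 on the control array (-0.33), and the retinal reductase Dhrs3 differed by -0.22.

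**Figure D4:**
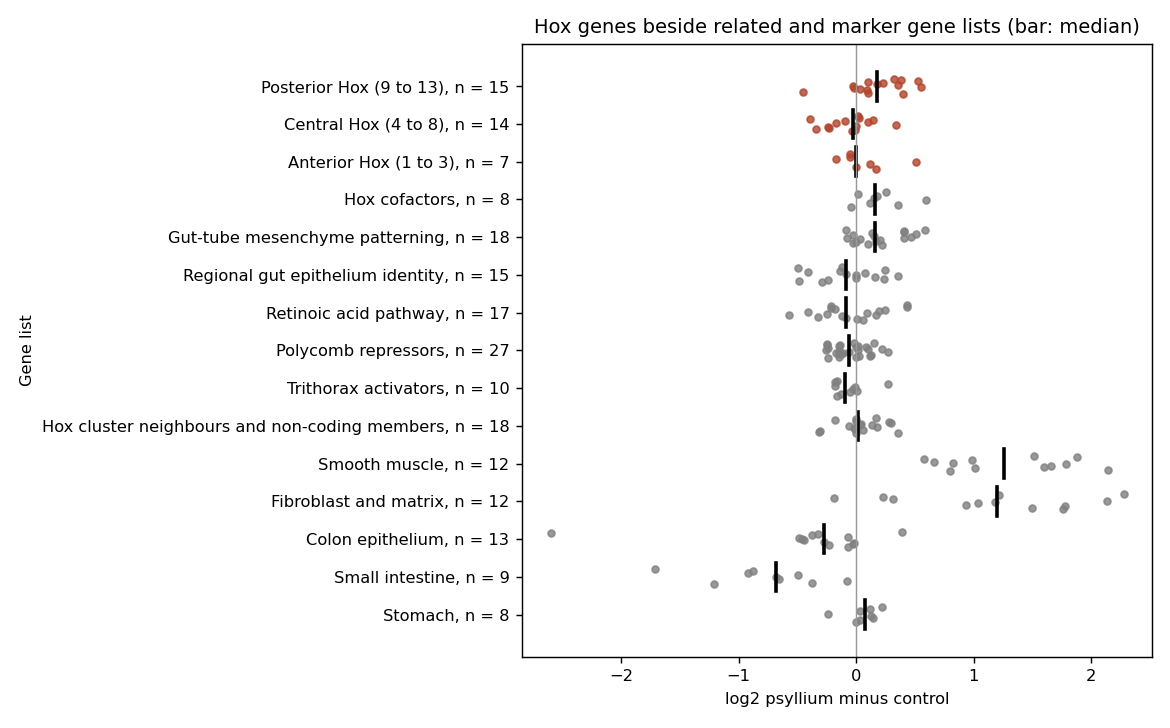
Log2 difference, psyllium minus control, of each gene in the Hox groups and in the lists described, with a black bar at each median. The Hox groups have medians of 0.18, -0.02 and 0 from posterior to anterior, while the smooth muscle median stands at 1.26.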

How the data were processed

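The intensities analysed are those the authors deposited, a linear normalised value for each probe set. The submitters' processing notes name RMA and Affymetrix Expression Console with no version. The step from RMA's log2 output to these linear intensities and the authors' annotation are not given in the sources used here. The 41345 values per array had medians of 49.8 (psyllium) and 48.9 (control), and all exceeded 0, so log2 was taken without a pseudocount. If the arrays were equalised, differences are relative to the bulk of transcripts. The number of arrays limits the precision.

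Gene names came from the platform annotation, updated by gene number through RefSeq (GRCm38.p6). Of all probe sets 23521 named 1 gene, 1814 several and 16010 none here. Of a gene's several probe sets (1082 genes), that with the highest mean was used. Groups came from the sample titles. With 1 array per diet no test was run. Counts used 1.5-fold and an intensity over 70. Members and lists (7 of pathway genes, 9 of markers) were chosen with earlier results of these data known. Text names every Hox gene and, per pathway list, up to 3 genes past 70 with the largest differences. A run on simulated data checked only that planted changes were recovered, with noise smaller than the spread between these arrays. It does not measure how reliable the counts are. Alternatives were further quantile normalisation, centring, a pseudocount of 16, the mean of probe sets, removal of a lowess trend (fraction 0.3) and other intensity limits. Python 3.11.15, pandas 2.3.3 and statsmodels 0.14.6 were used.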

Additional observations from a re-analysis of the deposited data

Results flagged for a closer look

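Probe sets that name a Hox gene together with another transcript stayed outside the family's counts, and those past 1.2-fold with the psyllium array above the control array are listed here. The brighter probe set of Hoxa11 and Hoxa11os differed by 0.58 (68.1 on the psyllium array and 45.4 on the control array). The probe set of Hoxa3 and 5730446D14Rik differed by 0.36 (69.6 on the psyllium array and 54.3 on the control array), where the probe set of Hoxa3 alone differed by -0.17. Neither exceeded 70 on either array. In the other direction, the probe sets of Mir10a with Hoxb4 and of Mira with Hoxa7 each differed by -0.36.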

How the results depend on the processing

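The medians of posterior (0.12 to 0.18) and central Hox genes (-0.05 to -0.02) kept their sign under the 5 alternatives run on them, and that of all Hox genes stayed between 0.02 and 0.03. The median of central genes over 70, -0.07, ran from -0.13 (limit of 100) to -0.06. The median of Hox genes over 70, -0.0090, became 0.0099 after further quantile normalisation, so it has no settled sign. With the intensity trend subtracted, 1 Hox gene was 1.5-fold higher, Hoxd10 at 0.59, against 0 in the values as reported, and 0 were 1.5-fold lower under every alternative run. With a pseudocount of 16, which shrinks the folds of dim genes by construction, 6 genes were 1.2-fold higher and 2 lower, against 8 and 3. Hoxd10 ran from 0.50 to 0.59, Hoxd11 from 0.30 to 0.36 and Hoxb8 from -0.41 to -0.33. The count over 70 was 13 when both arrays had to pass and 10 at a limit of 100. Of the 15 brighter genes none past 1.2-fold changed sign. No paired analysis was possible because each diet has 1 array, and no array could be left out for the same reason.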

Other observations

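Deposited intensities over 70 share a decimal pattern. After division by 0.5 the remainder lay within 0.001 of 0.0987 for 1118 of 16557 such values on the psyllium array (6.75%) and 1129 of 16439 on the control array (6.87%), where an even spread would give 0.4%. Both values of Hoxb2, 37.1 and 26.1, carry this remainder, although they lie under 70. The pattern was noticed after the values were seen.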
